A study of Glycine max with 18 samples.

Results

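Soybean seeds import most of their nitrogen as amides and other organic nitrogen through the maternal seed coat. The 9 genes described here encode enzymes of nitrogen assimilation and amino acid metabolism and a nitrate transporter. They are the glutamine synthetase genes GS1-GAMMA, GS1GAMMA2 and GS-2, the asparagine synthetase gene AS2, the asparaginase gene ASP1, the glutamate dehydrogenase genes GDH1 and GDH2, the glutamate decarboxylase gene GAD (symbol LOC547724) and the nitrate transporter gene NRT1-3. They were taken by symbol or synonym from the array's probe-gene table, which named 6029 genes by a single symbol on soybean probe sets. ASP1 carries the synonym GM-ASNASE1 in RefSeq, which is an asparaginase name. The 9 genes had 15 probe sets. Of these, 13 reached a signal of 100 on 2 or more arrays and were tested, among 31961 soybean probe sets tested in all.

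All seeds were of the cultivar Asgrow A3237, grown at 22 °C under 16 h light and 8 h dark, were 2.5 to 3 mm long and held cotyledon-stage embryos. Laser microdissection of 8 µm sections of fixed, paraffin-embedded seeds gave 8 captured compartments. In the filial part these were the endosperm and, of the embryo, the embryo proper and its stalk, the suspensor. The others were 5 regions of the maternal seed coat. These regions were the endothelium (the layer against the endosperm), the inner and outer integuments, the epidermis and the hilum, the scar of attachment to the pod. Whole seed, ground in liquid nitrogen, was the ninth group, and each group had 2 arrays. The labels name no mutant or treated group. The labels do not state whether the arrays of a group came from separate plants, so p-values measure the spread between these arrays alone, which can be technical. The same seeds can also have given several of the compartments.

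The values are linear signals of the Affymetrix Soybean Genome Array. Between 56.7% and 67.5% of the 37593 probe sets for soybean reached a signal of 100 on a given array, and the number of arrays limits the precision. As a measure of background, the 95th percentile of probe sets for other organisms ran from 105.7 on whole seed array 1 to 216 on hilum array 2. The second epidermis array (213) and the first arrays of inner integument (207) and outer integument (197) were well above their partners (134, 135 and 152), and are called the 3 high-background arrays. Of the marker genes looked at, MP2, PM25 and PM32 were highest in suspensor. They were known from earlier results of these data, so they are no independent check. CAB3, RCA14 and PHANa were highest in embryo proper, RCA14 by little (5578 against 4874 in inner integument). EP, a seed coat peroxidase gene chosen to mark epidermis and hilum, had no tested probe set under that single symbol. AGL1L, MADS28 and SEP1 were highest in parts of the seed coat. Against their labels, ANR1, chosen to mark endothelium, was highest in hilum (39308) and then epidermis (15911), and RCABETA was highest in outer integument (2942). In each capture, fewer cells of a type and less RNA per cell cannot be told apart.

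Glutamine synthetase joins ammonium to glutamate to make glutamine, in the cytosol (GS1 forms) and in plastids (GS2). Asparagine synthetase moves the amide of glutamine to aspartate, and asparaginase releases it again as ammonium. Glutamate dehydrogenase interconverts glutamate and 2-oxoglutarate in mitochondria, and glutamate decarboxylase turns glutamate into GABA, a step that the enzyme's calmodulin binding is known to regulate in plants. In developing legume seeds the seed coat unloads amino acids from the phloem and releases them towards the embryo, which has no direct vascular link to it.

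**Figure D1:**
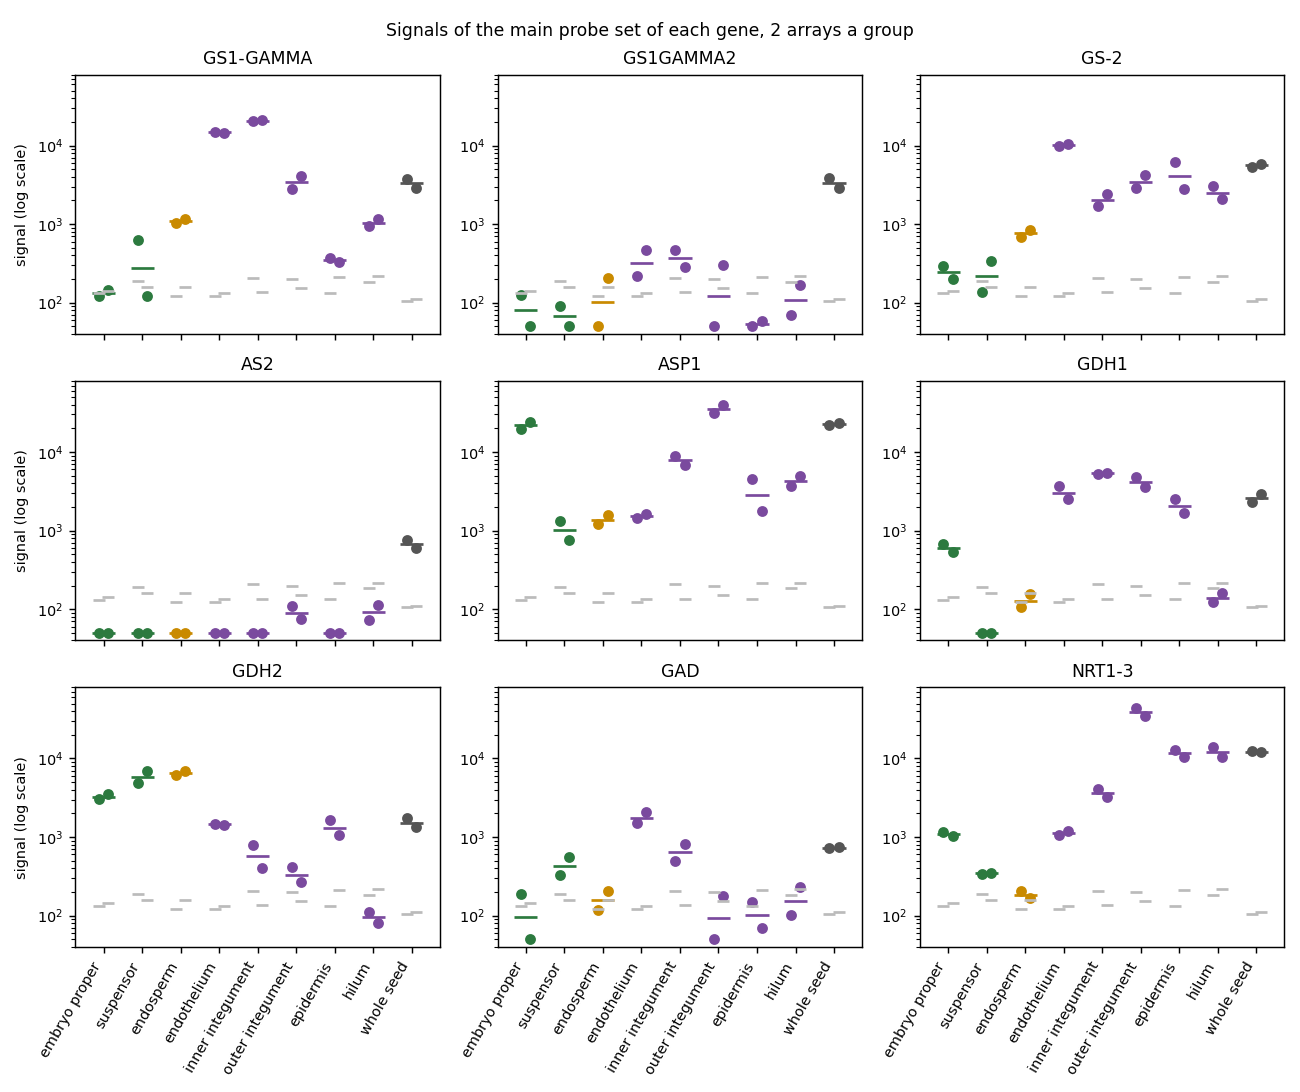
Signals of the main probe set of each of the 9 genes on a log axis, 1 point per array, with values under 50 drawn at 50, a line at the geometric mean of the 2 arrays and grey dashes at the background percentile (95th) of each array. Green marks the embryo, orange the endosperm, purple the seed coat and grey the whole seed; GS1-GAMMA is highest in inner integument and endothelium, NRT1-3 and ASP1 in outer integument, and GDH2 in endosperm and suspensor.

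GS1-GAMMA, a cytosolic glutamine synthetase, was high in the 2 inner layers of the seed coat and low in the embryo. Its 1 probe set (NCBI Gene 547798) read 20275 and 21147 on the inner integument arrays and 14955 and 14571 in endothelium. Outer integument gave 2804 and 4119.8, endosperm 1023 and 1161, hilum 935 and 1155, and epidermis 368 and 334. Suspensor gave 626 and 122 and embryo proper 120.3 and 144.5, and whole seed 3766 and 2882. Inner integument and endothelium did not overlap with each other or with the rest, a split whose share over all probe sets was not counted. Both inner integument arrays stood above the other 14 captured arrays, as for 5.89% of tested probe sets. The suspensor arrays lay far apart, on either side of the background percentile of their own arrays. Against the mean of the other 7 compartments, inner integument was 21.7-fold higher (log2 fold 4.44 ± 0.36 SE, limma adjusted p = 3.44e-08) and endothelium 14.7-fold higher (log2 fold 3.88 ± 0.36 SE, adjusted p = 2.99e-07), both with 2 arrays against 14. Embryo proper was 14.9-fold lower, suspensor 6.40-fold lower and epidermis 4.88-fold lower, and outer integument was 2.75-fold higher (adjusted p = 0.00569). The embryo as a pair of compartments was 17.2-fold lower than the seed coat (log2 fold -4.10 ± 0.28 SE, adjusted p = 1.95e-09). In the order of levels, endothelium was above outer integument (adjusted p = 0.00301) and outer integument above endosperm (adjusted p = 0.0123). Inner integument and endothelium did not differ by the test (adjusted p = 0.603), nor did endosperm and hilum, epidermis and suspensor, or suspensor and embryo proper. Hilum stood above epidermis (adjusted p = 0.0474), a call lost in 23 of the 28 alternative settings. The step from endothelium to outer integument was lost without the 3 high-background arrays (adjusted p = 0.0818), and that from outer integument to endosperm without endosperm array 1, without outer integument array 2 and with no filter (highest adjusted p = 0.102).

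The log2 signals of GS1-GAMMA lay 1.18 to either side of their mean in suspensor and at most 0.28 in the other groups. A single spread was fitted over all groups, so the suspensor pair widens the SE of every GS1-GAMMA comparison, such as hilum against epidermis. The suspensor arrays also set the size of several GS1-GAMMA values. Of the 4 embryo arrays 2 were under the background percentile, 1 in each compartment, so these sizes also depend on background. Its suspensor fall became 14.5-fold when array 1 was left out and 2.83-fold when array 2 was, and the embryo against seed coat fall was 25.8-fold and 11.4-fold. The outer integument rise no longer passed without outer integument array 2 (adjusted p = 0.125) or without the 3 high-background arrays (adjusted p = 0.0597).

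GS1GAMMA2, a second cytosolic form of the gamma type, had low signals in every capture. Its 1 probe set (NCBI Gene 547621) read 472 and 285 in inner integument, 217 and 472 in endothelium, 6.8 and 304 in outer integument, and 31.5 and 208 in endosperm. Hilum gave 69.3 and 168, embryo proper 125 and 51.1, suspensor 89.9 and 14.2, and epidermis 35.6 and 58.4. Only 6 of the 16 captured arrays exceeded the background percentile of their own array, and the compartments overlapped widely. No neighbours in the order of its levels differed by the test. It was 3.55-fold higher in inner integument than in the other 7 (log2 fold 1.83 ± 0.61 SE, limma adjusted p = 0.0308), a call that was lost without inner integument array 1 (adjusted p = 0.289) or array 2 (adjusted p = 0.0861). That call was lost too with a floor of 25 (adjusted p = 0.0574), no floor (adjusted p = 0.11) and no filter (adjusted p = 0.0917). Without the 3 high-background arrays it was lost at a log2 fold of 1.29. Whole seed read 3900.4 and 2915, above all 16 captured arrays, and was 27.9-fold above the mean of the 8 compartments (log2 fold 4.80 ± 0.60 SE, adjusted p = 1.95e-05). The size of that fold depends on background, since 10 of the 16 captured arrays lay under the background percentile.

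GS-2, by its name the plastid form, was highest in endothelium and low in the embryo. Its 1 probe set (NCBI Gene 548036) read 9799 and 10394 in endothelium, 6152 and 2767 in epidermis, 2887 and 4195 in outer integument, and 3074 and 2057 in hilum. Inner integument gave 1724 and 2386, endosperm 680.2 and 851, embryo proper 297 and 201, suspensor 138.5 and 336, and whole seed 5399 and 5767. Both endothelium arrays stood above the other 14 captured arrays, as for 2.12% of all tested probe sets in that compartment. All 4 embryo arrays lay below the seed coat, a split whose share over all probe sets was not counted. Endothelium was 8.65-fold higher than the other 7 (log2 fold 3.11 ± 0.30 SE, limma adjusted p = 6.65e-07), epidermis 3.11-fold and outer integument 2.56-fold higher. Suspensor was 9.36-fold lower, embryo proper 8.11-fold lower and endosperm 2.22-fold lower, and the embryo was 16.3-fold lower than the seed coat (log2 fold -4.03 ± 0.24 SE, adjusted p = 3.04e-10). Suspensor array 1 was under its background percentile (138.5 against 188.8), so the sizes of the suspensor fall and of embryo against seed coat also depend on background.

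GS-2 was higher in endothelium than in each of the other 7 compartments, as were 0.435% of tested probe sets, but the step down to epidermis (adjusted p = 0.0362) did not hold in all settings. The lead over all 7 was lost without endothelium array 1 (adjusted p of the smallest difference = 0.126), endothelium array 2 (0.149), epidermis array 2 (0.419) or outer integument array 1 (0.118), and without the 3 high-background arrays (0.413). It was lost too with a floor of 100 (0.0598), no filter (0.104), no variance trend (0.0863) and the captured arrays alone (0.0502). Epidermis, outer integument, hilum and inner integument followed each other without a difference by the test, then inner integument stood above endosperm (adjusted p = 0.0113) and endosperm above embryo proper (adjusted p = 0.00578). The first of these steps was lost without endosperm array 1 or inner integument array 2 (highest adjusted p = 0.0967), and the second without endosperm array 2 or embryo proper array 2 (highest adjusted p = 0.0797). Embryo proper and suspensor did not differ by the test. Leaving out endosperm array 1 ended the endosperm fall (adjusted p = 0.133), epidermis array 1 the epidermis rise (adjusted p = 0.0836), and outer integument array 2 the outer integument rise (adjusted p = 0.0953). The suspensor fall became 6.01-fold when suspensor array 1 was left out and 14.6-fold when array 2 was.

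The other glutamine synthetase genes of the table had different patterns. LOC548082, with the synonym GS1beta1, had its highest means in hilum (38449) and epidermis (32508), where it was 5.61-fold and 4.63-fold higher than in the other 7 (limma adjusted p = 6.08e-09 and adjusted p = 3.07e-08). Its mean was 2925 in inner integument, 3.39-fold lower than in the other 7, and 984 in embryo proper, 11.8-fold lower. LOC547953, with the synonym GS1beta2, was 5.83-fold higher in hilum and 4.0-fold higher in epidermis. GS1-GAMMA, for comparison, was lower in epidermis and higher in inner integument. GS1alpha had a highest mean of 226, in endosperm, and lay at 50 in 4 of the compartments. Over the 8 compartment means the 2 gamma genes had a Pearson correlation of 0.937, as a description of 8 points that share arrays and scaling.

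**Figure D2:**
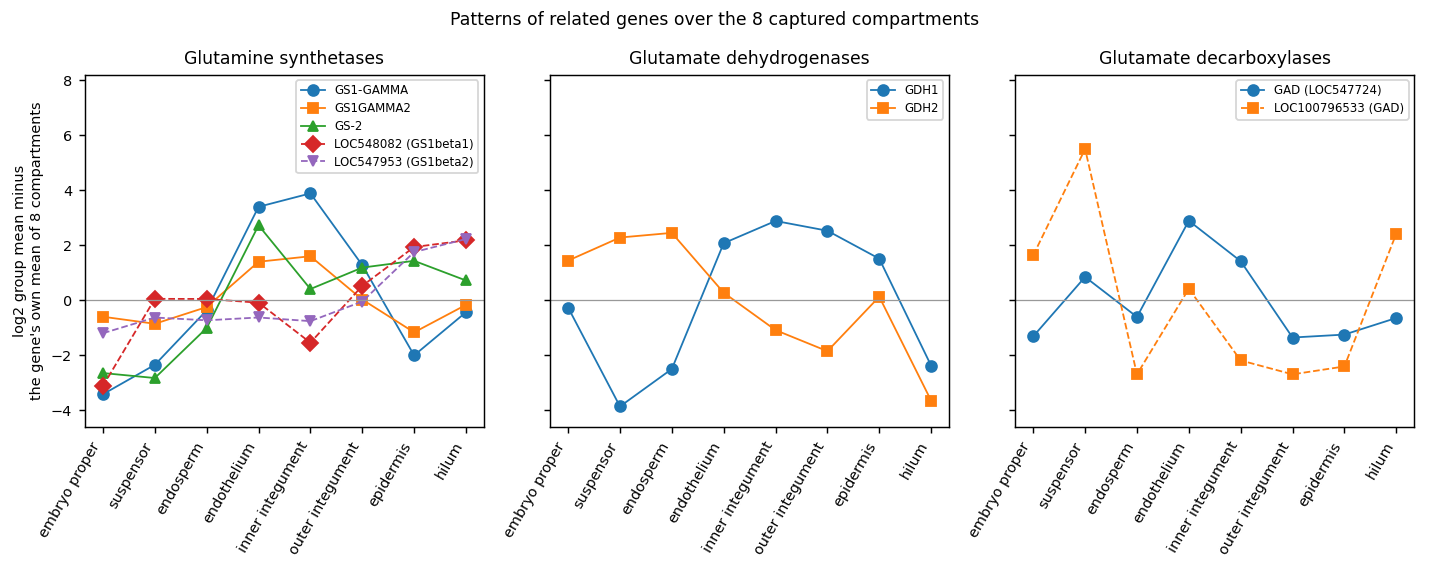
Log2 group mean of each gene minus its own mean over the 8 captured compartments, for the glutamine synthetases, the glutamate dehydrogenases and the glutamate decarboxylases, 1 point per compartment (mean of 2 arrays). GDH1 is highest in inner integument and lowest in suspensor while GDH2 is highest in endosperm and lowest in hilum, and dashed lines are related genes outside the 9.

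AS2, an asparagine synthetase, was at or near background in all captured compartments. Of its probe sets (NCBI Gene 547894), that with the suffix _x_at, the main one, read 73.2 and 112.5 in hilum and 109 and 74.4 in outer integument, and between 5.7 and 39.9 on the other 12 captured arrays. That with the suffix _a_at read 128 and 126 in hilum, 53.1 on suspensor array 2, 51.1 on endothelium array 1, and under 50 on the rest. None of these exceeded the background percentile of its own array, on 0 of 16 captured arrays for either probe set. Whole seed read 761 and 596.5 with the first and 211 and 223 with the second, above every captured array. The whole seed was 11.6-fold higher than the 8 compartments with the first (log2 fold 3.54 ± 0.29 SE, limma adjusted p = 2.03e-07) and 3.84-fold with the second (log2 fold 1.94 ± 0.25 SE, adjusted p = 2.45e-05). On 12 of the 16 captured arrays each probe set was under the floor of 50, and the sizes of these folds depend on that floor.

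With the second probe set, AS2 was 2.52-fold higher in hilum (log2 fold 1.34 ± 0.25 SE, limma adjusted p = 0.000769), where the background percentiles were 184 and 216 and so above its signals. The part of that background in the call was not tested. On 12 of the 14 other captured arrays it was under the floor, and its hilum log2 fold ran from 0.34 with a floor of 100 to 3.06 with no floor. The hilum stood above each of the other 7 with this probe set, as did 0.823% of tested probe sets, a call that was lost without either hilum array (adjusted p = 0.0651), either embryo proper array (adjusted p = 0.0536 and adjusted p = 0.0545) or either epidermis array (adjusted p = 0.0647 and adjusted p = 0.0676). It was lost too with a floor of 25 (adjusted p = 0.0562), a floor of 100 (adjusted p = 0.0730), no floor (adjusted p = 0.334) and without the 3 high-background arrays (adjusted p = 0.0682). The first probe set was not called in any of the 8 compartments. Both carry suffixes for binding related transcripts, and both passed the filter only through hilum, outer integument and whole seed arrays.

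ASP1, the asparaginase gene, was highest in outer integument and embryo proper. Its 1 probe set (NCBI Gene 547703) read 31271.5 and 40104 in outer integument, 19567 and 24264 in embryo proper, 8982 and 6869 in inner integument, and 3669.9 and 4991 in hilum. Epidermis gave 4485 and 1774, endothelium 1438 and 1619, endosperm 1197 and 1586, suspensor 1342 and 756, and whole seed 21832 and 23302. All 18 arrays exceeded their background percentile, and both outer integument arrays stood above all other captured arrays, as for 4.49% of tested probe sets. Outer integument was 10.7-fold higher than the other 7 (log2 fold 3.42 ± 0.26 SE, limma adjusted p = 2.00e-08), embryo proper 6.14-fold (log2 fold 2.62 ± 0.26 SE, adjusted p = 4.99e-07) and inner integument 1.91-fold (adjusted p = 0.0107). The inner integument call was lost without inner integument array 1 (1.67-fold) and without the 3 high-background arrays (log2 fold 0.62). Suspensor was 5.47-fold lower (log2 fold -2.45 ± 0.26 SE, adjusted p = 8.10e-07), endosperm 3.82-fold lower and endothelium 3.4-fold lower.

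The parts of the embryo lay far apart for ASP1, with embryo proper 21.6-fold above suspensor (log2 fold 4.44 ± 0.34 SE, limma adjusted p = 2.67e-08). Outer integument and embryo proper did not differ by the test (adjusted p = 0.163), and embryo proper stood above inner integument (adjusted p = 0.00262). From inner integument down to suspensor no pair of neighbours differed by the test, with adjusted p from 0.0691 to 0.845. Embryo against seed coat gave a log2 fold of -0.24 for ASP1 and was not called.

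GDH1, a glutamate dehydrogenase, was high in 4 of the 5 seed coat layers and under the floor in suspensor. Its main probe set (NCBI Gene 547687), the one with the highest mean log2 signal over the 16 captured arrays, read 5237.5 and 5433 in inner integument, 4877 and 3567 in outer integument, 3688 and 2517 in endothelium, and 2511 and 1695 in epidermis. Embryo proper gave 677 and 537, hilum 122 and 159.7, endosperm 106 and 156, suspensor 13.0 and 7.2, and whole seed 2319 and 2896. Both suspensor arrays lay below the other 14, as for 3.24% of tested probe sets, and the hilum, endosperm and suspensor arrays were all under the background percentile. Inner integument was 9.80-fold higher than the other 7 (log2 fold 3.29 ± 0.25 SE, limma adjusted p = 1.76e-08), outer integument 7.40-fold, endothelium 5.17-fold and epidermis 3.31-fold. Suspensor was 21.2-fold lower (adjusted p = 2.40e-10), endosperm 7.22-fold lower and hilum 6.56-fold lower, sizes that depend on background since these arrays were under the percentile. The suspensor log2 fold ran from -6.63 to -3.41 over the 28 alternative settings. The embryo was 10.4-fold lower than the seed coat (log2 fold -3.38), with both suspensor arrays at the floor of 50. The log2 fold ran from -2.88 with a floor of 100 to -4.50 with no floor. The inner integument, outer integument, endothelium and epidermis followed each other without a difference by the test. Epidermis stood above embryo proper (adjusted p = 0.000755), embryo proper above hilum (adjusted p = 0.000129), and endosperm above suspensor (adjusted p = 0.00504).

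Suspensor was below each of the other 7 for GDH1, as were 1.04% of tested probe sets, but the step from endosperm rests on signals near background. It was lost without endosperm array 2 (adjusted p = 0.0708) and with a floor of 100 (adjusted p = 0.485). The hilum was the one seed coat compartment at the level of endosperm, and it was 29.9-fold below outer integument (limma adjusted p = 6.99e-09). Both hilum arrays were under the background percentile, so the size of that fold depends on background.

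The other 3 probe sets of GDH1 gave weaker signals. The one with the suffix _s_at, for related transcripts, read 287 and 385 in outer integument and 242 and 240.1 in inner integument. It read at most 53.7 in suspensor, endosperm and epidermis, and 484 and 702 in whole seed. It was 3.71-fold higher in outer integument (limma adjusted p = 0.00097) and 2.57-fold higher in inner integument, and it was lower in suspensor, endosperm and epidermis. Epidermis is where it opposed the main probe set. Each of those calls but that of outer integument was lost without 1 of the compartment's own arrays 1 and 2, with adjusted p of 0.119 and 0.108 in suspensor, 0.169 and 0.122 in endosperm, 0.145 and 0.206 in epidermis, and 0.0840 and 0.0788 in inner integument. With a floor of 100 the falls of the _s_at probe set in suspensor, endosperm and epidermis were lost too (adjusted p from 0.094 to 0.142). Of the remaining pair, one exceeded background on 2 arrays and was called in 0 of 8 compartments, and the other never exceeded 74.9 and was not tested.

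GDH2, a second glutamate dehydrogenase, was highest in endosperm and suspensor, where GDH1 was near or under background. Its main probe set (NCBI Gene 547688) read 6201 and 6909.8 in endosperm, 4916.5 and 6897 in suspensor, and 3041 and 3488 in embryo proper. Endothelium gave 1471 and 1433, epidermis 1627 and 1058, inner integument 804 and 399, outer integument 419.7 and 264, hilum 113 and 81.7, and whole seed 1757 and 1335. The 4 embryo arrays all lay above the 10 seed coat arrays, a split whose share over all probe sets was not counted. Both hilum arrays lay below the other 14, as for 1.43% of tested probe sets. Endosperm was 6.96-fold higher than the other 7 (log2 fold 2.80 ± 0.27 SE, limma adjusted p = 2.22e-07), suspensor 6.09-fold and embryo proper 3.13-fold higher. Hilum was 17.9-fold lower (log2 fold -4.17 ± 0.27 SE, adjusted p = 4.67e-09), with both arrays under the background percentile, so that the size depends on background. Outer integument was 4.32-fold lower and inner integument 2.36-fold lower, and the embryo was 8.54-fold higher than the seed coat (log2 fold 3.09 ± 0.21 SE, adjusted p = 1.66e-09).

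The hilum was below each of the other 7 for GDH2, as were 0.297% of tested probe sets, and that call held in all 28 alternative settings. Neither endosperm and suspensor nor suspensor and embryo proper differed by the test (adjusted p = 0.810 and adjusted p = 0.0964). Embryo proper stood above endothelium (limma adjusted p = 0.0216), a call lost without either array of either compartment (highest adjusted p = 0.144). The step from epidermis to inner integument (adjusted p = 0.0152) was lost without epidermis array 1 or inner integument array 2 (highest adjusted p = 0.231). The inner integument fall was lost without inner integument array 2 (adjusted p = 0.133). The second probe set never exceeded 84.1 and was not tested. Its highest readings were 84.1 and 61.8 in suspensor and 63.5 and 80.2 in endosperm.

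Between endosperm and endothelium, the maternal layer beside it, the 2 dehydrogenase genes ran in opposite directions. GDH1 was 23.7-fold lower in endosperm (limma adjusted p = 8.75e-09), a size that depends on background, since both endosperm arrays were under the percentile. GDH2 was 4.51-fold higher there (log2 fold 2.17 ± 0.35 SE, adjusted p = 0.000127). At the same boundary GS1-GAMMA was 13.5-fold, GS-2 13.3-fold, GAD 11.3-fold and NRT1-3 (main probe set) 6.06-fold lower in endosperm, with adjusted p from 1.09e-07 to 0.000793. For GAD, endosperm array 1 was under the background percentile, so its size depends on background too. The second NRT1-3 probe set had means of 96.1 in endosperm and 227.8 in endothelium, with both endosperm arrays under the percentile. ASP1 did not differ by the test there (adjusted p = 0.845).

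GAD, the glutamate decarboxylase LOC547724, was highest in endothelium. Its 1 probe set (NCBI Gene 547724) read 1501 and 2096 in endothelium, 498 and 824 in inner integument, 333 and 557.5 in suspensor, and 119 and 208 in endosperm. Hilum gave 101 and 234, epidermis 148 and 69.0, embryo proper 187 and 27.4, outer integument 46.4 and 176, and whole seed 731 and 740.1. Both endothelium arrays lay above all other captured arrays, as for 2.12% of tested probe sets, and the low compartments overlapped around background. Endothelium was 9.86-fold higher than the other 7 (log2 fold 3.30 ± 0.52 SE, limma adjusted p = 0.000133), a call that held in all 28 alternative settings. No neighbours in its order of levels differed by the test, with adjusted p = 0.193 between endothelium and inner integument.

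The other GAD calls were weak. Inner integument was 3.08-fold higher (limma adjusted p = 0.0241), and this was lost without its array 1 (adjusted p = 0.0675) or array 2 (adjusted p = 0.256). Embryo proper was 2.82-fold lower (adjusted p = 0.0426). Leaving out its array 1 made that 5.45-fold, leaving out array 2 made it 1.46-fold (adjusted p = 0.689), and its call was lost too without suspensor array 2, endosperm array 2, endothelium array 2, epidermis array 1, hilum array 2, inner integument array 2 or either whole seed array (adjusted p from 0.0529 to 0.0616). Outer integument was 2.92-fold lower (adjusted p = 0.0383). That value was 1.56-fold without outer integument array 1 (adjusted p = 0.617) and 5.48-fold without array 2. Its call was lost too without endosperm array 2, endothelium array 2, epidermis array 1, hilum array 2, inner integument array 2 or either whole seed array (adjusted p at most 0.0560).

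LOC100796533, a second gene with the synonym GAD in RefSeq, was not among the 9 and had another pattern. Its mean was 14553 in suspensor, 77.7-fold higher than in the other 7 (log2 fold 6.28 ± 0.38 SE, limma adjusted p = 6.93e-10), a size that depends on the floor, where 6 of the 14 other captured arrays lay. It was 1725 in hilum, 1003 in embryo proper, 431 in endothelium and at the floor of 50 in endosperm and outer integument. In suspensor, LOC547724 had a mean of 431 and a log2 fold of 0.97 that was not called.

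NRT1-3, a nitrate transporter of the NRT1 family, was highest in outer integument and lowest in endosperm. Its main probe set (NCBI Gene 547471) read 43997 and 34671 in outer integument, 12797 and 10475 in epidermis, 13906 and 10397 in hilum, and 4135 and 3224 in inner integument. Endothelium gave 1063 and 1184, embryo proper 1176 and 1022, suspensor 340.4 and 351, endosperm 207 and 166, and whole seed 12403 and 12085. All 18 arrays exceeded their background percentile. On endosperm array 2 the margin was small (165.9 against 160.4), so the size of the endosperm fold can depend on background. The compartments fell into steps, with hilum and epidermis sharing 1 step and endothelium and embryo proper another. Outer integument was 23.1-fold higher than the other 7 (log2 fold 4.53 ± 0.17 SE, limma adjusted p = 7.41e-12), hilum 6.0-fold and epidermis 5.75-fold higher. Endosperm was 19.6-fold lower (log2 fold -4.30 ± 0.17 SE, adjusted p = 4.23e-12), suspensor 9.63-fold lower, embryo proper 2.58-fold and endothelium 2.51-fold lower. The embryo was 12-fold lower than the seed coat (log2 fold -3.59 ± 0.14 SE, adjusted p = 7.68e-13). Inner integument was 1.54-fold higher (adjusted p = 0.0111). This was lost without inner integument array 1 (1.36-fold) and without the 3 high-background arrays (log2 fold 0.44).

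Outer integument was above each of the other 7 for NRT1-3 with both probe sets, as were 1.38% of all tested probe sets. In the order of the main probe set, outer integument stood above hilum (limma adjusted p = 2.59e-05), epidermis above inner integument, inner integument above endothelium, embryo proper above suspensor, and suspensor above endosperm (adjusted p = 0.00720). Hilum and epidermis did not differ by the test, nor did endothelium and embryo proper. The last step, between suspensor and endosperm, was lost without endosperm array 2 (adjusted p = 0.0794).

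The second probe set of NRT1-3 also peaked in outer integument, at 4392 and 4445, and was lowest in endosperm, at 83.4 and 111, and embryo proper, at 92.2 and 107. It gave 525 and 739.9 in suspensor, 284 and 183 in endothelium, 1533 and 1240.1 in epidermis, 759.8 and 640.2 in hilum, 808 and 553 in inner integument, and 2128 and 3389 in whole seed. Outer integument was 12.1-fold higher than the other 7 (log2 fold 3.60 ± 0.28 SE, limma adjusted p = 2.08e-08). The probe sets disagreed between the 2 parts of the embryo. Embryo proper was 3.17-fold higher than suspensor with the main probe set (adjusted p = 2.28e-05) and 6.27-fold lower with the second (adjusted p = 2.20e-05). The second probe set was under the background percentile on both embryo proper and both endosperm arrays, so the size of its folds there depends on background. The endothelium fall of the second probe set was lost without endothelium array 2 (adjusted p = 0.103), and its lead over each of the other 7 in outer integument was lost without the 3 high-background arrays (adjusted p = 0.110).

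**Figure D3:**
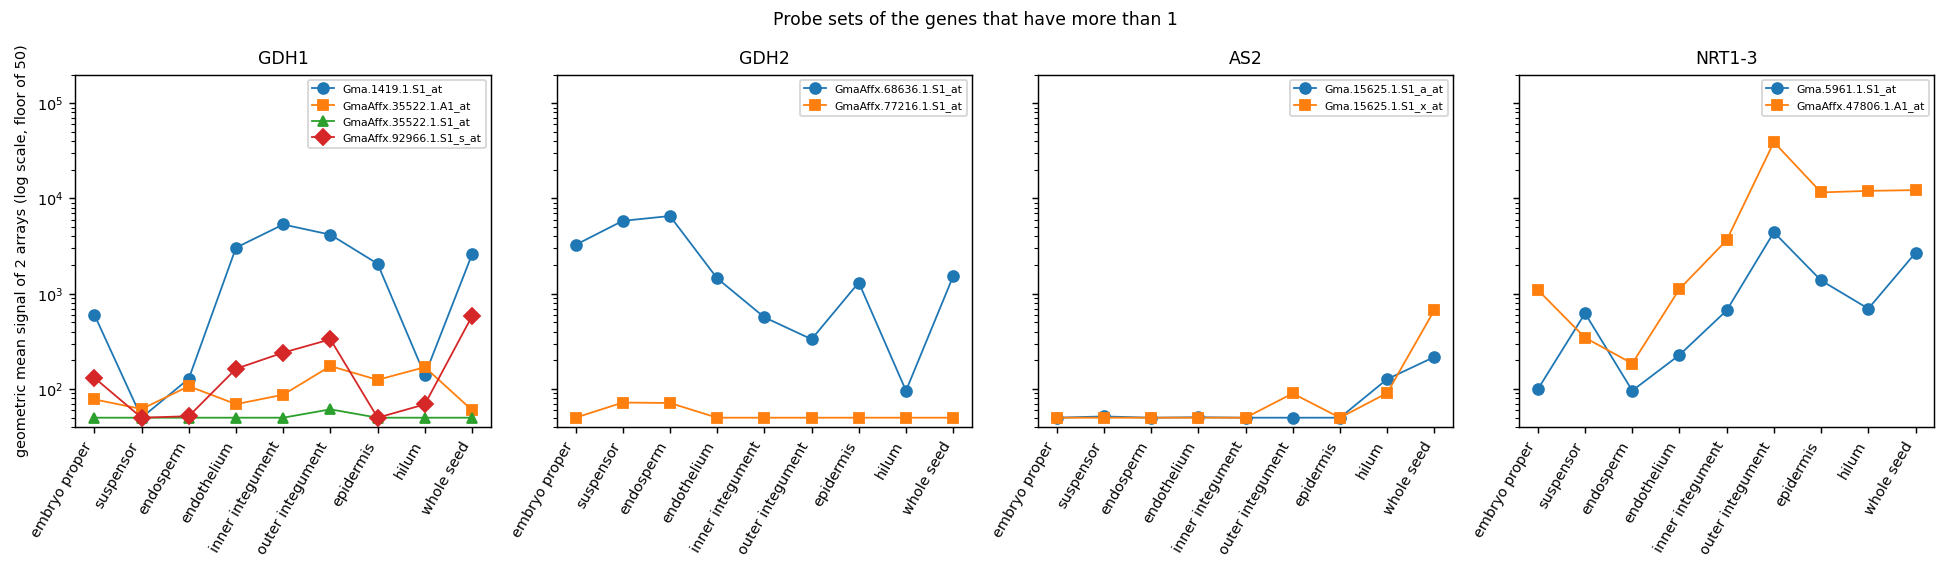
Geometric mean signal of the 2 arrays of each group (log axis, values under 50 set to 50) for each probe set of the 4 genes that have more than 1. The 2 NRT1-3 probe sets both peak in outer integument and cross between embryo proper and suspensor, while the second GDH2 probe set stays near the floor.

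By compartment, the 13 tested probe sets were read against the share of all 31961 tested probe sets that passed the same test (limma, adjusted p under 0.05). In embryo proper 7 of 13 passed, 2 higher and 5 lower, against 23.5% of all (12.3% higher and 11.2% lower). In suspensor 7 passed, 1 higher and 6 lower, against 26.9% (12.7% and 14.3%). In endosperm 7 passed, 1 higher and 6 lower, against 30.5% (15.1% and 15.4%). GDH2 was the member higher in suspensor and in endosperm. The median log2 fold of the members was -0.44 in embryo proper, -0.97 in suspensor and -0.69 in endosperm, beside -0.10, -0.11 and -0.10 over all tested probe sets.

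In the seed coat, the integuments held most of the higher member probe sets. By main probe set alone, 7 of the 9 genes passed in outer integument, 7 in inner integument, 6 in endothelium, 4 in epidermis and 3 in hilum. Outer integument had 9 of 13 passing, 7 higher and 2 lower, against 22.0% of all (11.7% higher and 10.4% lower). Inner integument had 8 passing, 7 higher and 1 lower, against 27.7% (13.9% each way). The count of 8 fell without inner integument array 1, without its array 2 and without the 3 high-background arrays, each of which leaves it 1 array. The count over all probe sets also fell without its array 1. Over the 28 alternative settings, the inner integument log2 fold ran from 4.27 to 4.64 for GS1-GAMMA. For the main probe set of GDH1 it ran from 3.15 to 3.61. Endothelium had 7 passing, 4 higher and 3 lower, against 17.6% (8.76% and 8.80%). Epidermis had 6, 4 higher and 2 lower, against 14.2% (7.90% and 6.35%), and hilum 4, 2 higher and 2 lower, against 21.1% (12% and 9.19%). The median log2 fold of the members was 1.36 in outer integument, 0.62 in inner integument, 0.32 in endothelium, -0.20 in epidermis and -0.07 in hilum, beside 0.00, 0.01, -0.12, 0.03 and 0.08 over all tested probe sets. Embryo against seed coat had 6 of 13 passing, 1 higher (GDH2) and 5 lower, against 30.5% of all (14.6% and 15.9%).

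Between single compartments, the counts of member probe sets called out of 13 were set against the share of all tested probe sets called for the same pair. Embryo proper and suspensor differed in 6 member probe sets (24.6% of all), embryo proper and endosperm in 6 (22.6%), and suspensor and endosperm in 5 (23.9%). From the seed coat, embryo proper differed in 7 member probe sets from endothelium (22.0%), 7 from epidermis (16.0%), 8 from hilum (20.7%), 9 from inner integument (30.9%) and 6 from outer integument (24.2%). Suspensor differed in 8 from endothelium (23.5%), 7 from epidermis (24.3%), 8 from hilum (27.8%), 8 from inner integument (28.9%) and 10 from outer integument (28.7%). Endosperm differed in 8 from endothelium (23.8%), 7 from epidermis (24.8%), 6 from hilum (29.1%), 9 from inner integument (31.1%) and 8 from outer integument (30.4%).

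Within the seed coat, hilum differed from outer integument in 8 member probe sets (16.7% of all), and from epidermis in 4 (8.31%), endothelium in 9 (20.6%) and inner integument in 7 (27.1%). Endothelium differed in 7 member probe sets from epidermis (15.6%), 5 from inner integument (13.1%) and 7 from outer integument (19.5%). Epidermis differed in 9 from inner integument (25.1%) and 7 from outer integument (14.0%), and the integuments differed from each other in 5 (20.6%).

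**Figure D4:**
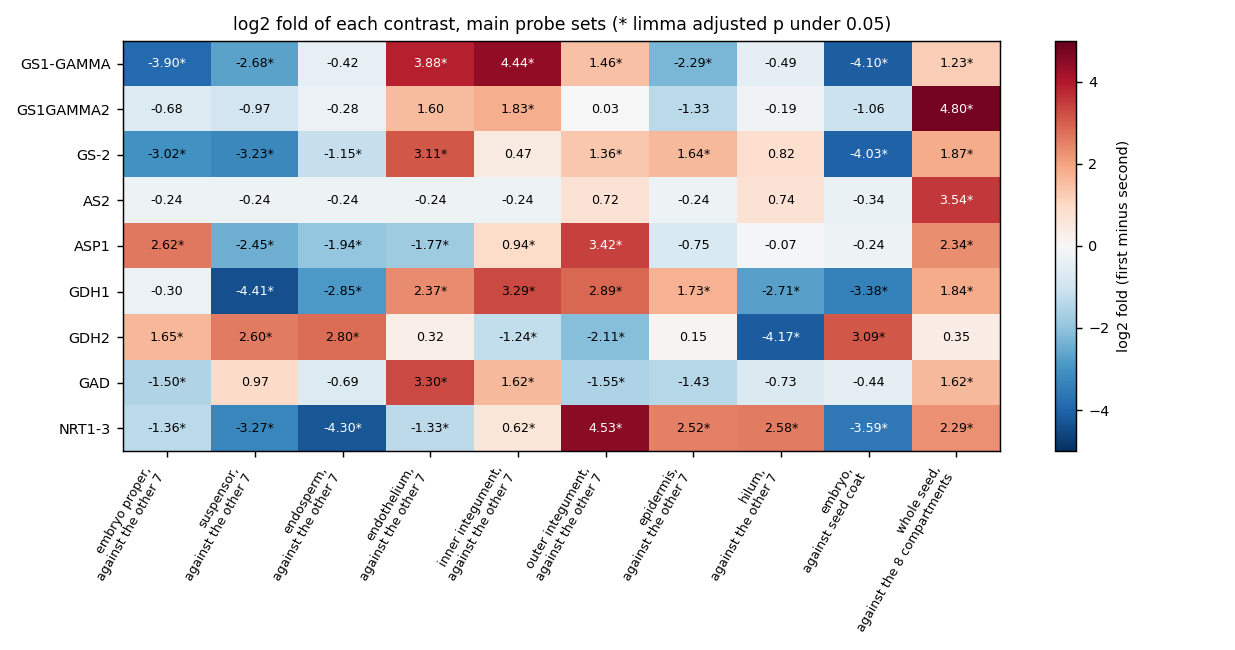
Log2 fold of the main probe set of each gene in the 10 contrasts, coloured from -5 to 5, with an asterisk where the limma adjusted p was under 0.05. GDH2 is the member with an asterisk and a positive value for embryo against seed coat, and NRT1-3 has an asterisk in every column.

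Whole seed was set against the mean of the 8 compartments. Of the 13 member probe sets 11 passed, all 11 higher, against 19.4% of all tested probe sets (11.8% higher and 7.56% lower). By main probe set alone, 8 genes passed. That mean gives each compartment equal weight on the log2 scale, whatever its share of the seed. The part of this weighting in the rises was not tested. For GS1-GAMMA, whole seed was at 3294.5, above that mean (1403.3) but below outer integument (3399), endothelium (14762) and inner integument (20706). The median log2 fold was 1.94 over the members and -0.10 over all. Both AS2 probe sets are among the 11 and in that median. They exceeded background on 0 of 16 captured arrays and passed the filter only through hilum, outer integument and whole seed arrays. GDH2 (log2 fold 0.35) and the weak GDH1 probe set called in 0 compartments (log2 fold -0.76) were not called. For GS1GAMMA2, both AS2 probe sets and the _s_at probe set of GDH1, both whole seed arrays lay above all 16 captured arrays, a place whose share over all probe sets was not counted. For the others they lay within the range of the captures. Whole seed RNA was isolated from ground tissue with another reagent than the captures, and this difference cannot be told apart from that of tissue. The GS1-GAMMA call (2.35-fold, limma adjusted p = 0.0193) was lost without whole seed array 1 (adjusted p = 0.255) or array 2 (adjusted p = 0.101), and the GAD call (3.07-fold, adjusted p = 0.0326) likewise (adjusted p = 0.216 and adjusted p = 0.230).

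Other genes of nitrogen uptake, assimilation and amino acid metabolism were found by a list of name patterns, of which 36 genes were tested, each at its main probe set. In suspensor 11 were higher, 6 lower and 19 neither, where 12.7% of all tested probe sets were higher and 14.3% lower. The 4 with the smallest p there were ODC2, an ornithine decarboxylase (99.8-fold higher, with 7 of the 14 other captured arrays at the floor), AAH, the allantoate amidohydrolase of ureide breakdown (9.68-fold lower, limma adjusted p = 1.91e-10), LOC100796533, and INR2, an inducible nitrate reductase (55.3-fold higher, adjusted p = 2.28e-09). The size for INR2 depends on background, under which 12 of the 14 other captured arrays lay, 4 of them at the floor. INR2 had a mean of 4961 in suspensor, 416 in embryo proper and at most 84.9 in the other compartments. AAH had means of 28500.2 in inner integument, 28371 in outer integument and 24067 in endothelium, and of 1320.0 in suspensor.

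Of the same 36 genes, outer integument had 8 higher and 3 lower (11.7% and 10.4% of all tested probe sets), led by EU3, a urease accessory protein (6.20-fold higher, limma adjusted p = 2.98e-09). Embryo proper had 6 higher and 8 lower (12.3% and 11.2% of all), and endosperm 5 and 8 (15.1% and 15.4%). Epidermis had 3 and 6 (7.90% and 6.35%), hilum 6 and 6 (12% and 9.19%), inner integument 4 and 9 (13.9% each way) and endothelium 7 and 9 (8.76% and 8.80%). The counts passing in either direction fell by over 1.5 times without 1 array in some compartments. With array 1 or array 2 left out, embryo proper had 9 and 7, endothelium 10 and 8, inner integument 8 and 8, and hilum 7 without array 1. Epidermis had 4 without the 3 high-background arrays. Embryo against seed coat had 10 higher, 11 lower and 15 neither (14.6% higher and 15.9% lower of all). The median log2 fold was -0.47 over the list and -0.12 over all tested probe sets in endothelium. In the other compartments it lay between -0.16 and 0.08 over the list and between -0.11 and 0.08 over all. Whole seed had 9 higher and 3 lower (11.8% and 7.56% of all), and 7 passing without its array 1 and 5 without its array 2.

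The genes most like each member were taken by the Pearson correlation of log2 means over the 8 compartments among 921 other genes with a name. For GS1-GAMMA these were WRKY59 (0.974), GA2OX6 (0.956) and MYB75 (0.952), and for GS1GAMMA2 they were SPK-2 (0.965), WRKY59 (0.961) and RAB2 (0.957). GS-2 was nearest to LBD23 (0.929), ASP1 to GSTU37 (0.977) and KTI-3 (0.944), and AS2, mostly at the floor, to BZIP47 (0.926). GDH1 was nearest to MYB109 (0.936), SOYAP2 (0.914) and AAH (0.905), and GDH2 to PAE1 (0.888). GAD was nearest to HPPD (0.954), and NRT1-3 to the lipoxygenase genes LOX7 (0.969) and VLXB (0.968) and the cytokinin oxidase gene CKX3 (0.948). These values describe 8 points that share arrays and scaling, and have no test.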

How the data were processed

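Per array, 2 ng of RNA was amplified (RiboAmp OA), biotin-labelled and measured on the Soybean Genome Array of Affymetrix, per the labels' protocols. Each deposited value is an intensity on a linear scale for 1 probe set, made by the authors with GCOS 1.3 per the submitters' processing notes. Its settings are not given in the sources used here. Soybean probe sets (37593 of 61170) were kept, signals under 50 were set to 50 and taken to log2, and the 31961 that reached 100 on 2 or more arrays were fitted with limma 3.58.1 (lmFit, eBayes with a variance trend) in R 4.3.3. A mean was fitted for each of 9 groups from all 18 arrays. The Benjamini-Hochberg method adjusted p-values over all tested probe sets, contrast by contrast, and 0.05 was the threshold. A fold is a ratio of geometric means of floored signals, and SE is its standard error after moderation, on the log2 scale.

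Each gene is described by its main probe set, that with the highest mean log2 signal over the 16 captured arrays. The other probe sets of the 9 genes are described beside it. The members, lists and alternatives were chosen with earlier results of these data known. The pathway list came from 75 name patterns and matched 37 genes after 1 gene with an ambiguous symbol was removed. At most 4 genes of it, by smallest p, are named in a contrast, along with related glutamine synthetases and levels chosen after their values were seen. The fit was tested on simulated data. Alternatives were the floor, the filter, quantile normalization, no variance trend, the captured arrays alone, no high-background arrays, the replicate number as a block, and each array left out. Where a group keeps 1 array, its spread is assumed to equal that of the other groups. No genome coordinates or sequences were used.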

Additional observations from a re-analysis of the deposited data

How the results depend on the processing

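Of 72 calls of member probe sets in the 10 contrasts, 54 passed in all 28 alternative settings, 18 were lost in at least 1, and 0 changed sign. Of the 18, 9 belonged to GAD, GS1GAMMA2 and the _s_at probe set of GDH1. Of 58 results not called, 20 passed in at least 1 setting. The number of members called in inner integument, 8, was 3 without the 3 high-background arrays. Leaving out 1 array gave 6 to 7 members called in embryo proper, 6 to 7 in suspensor, 5 to 8 in endosperm, 6 to 8 in endothelium, 5 to 7 in epidermis, 4 to 6 in hilum, 3 to 8 in inner integument, 7 to 9 in outer integument, 6 to 7 for embryo against seed coat and 9 to 11 for whole seed. Over all probe sets, the 4554 calls in epidermis were 2320 and the 7039 in outer integument 4104 without the 3 high-background arrays. Leaving out 1 array of the compartment lowered the counts over all probe sets by over 1.5 times in embryo proper (7514 to 3948), endosperm (9734 to 5587), endothelium (5611 to 3082), epidermis (4554 to 2289), hilum (6757 to 3471), inner integument (8867 to 5743), outer integument (7039 to 3865) and whole seed (6191 to 2408). These settings leave a group with 1 array. Same-numbered arrays of different groups did not deviate together (correlations from -0.073 to 0.083 over 36 pairs of groups), so no pairing by number was seen. Whether compartments came from the same seeds cannot be told from this. With the replicate block the member probe sets called were 7 in embryo proper, 7 in suspensor, 7 in endosperm, 7 in endothelium, 6 in epidermis, 4 in hilum, 8 in inner integument, 9 in outer integument, 6 for embryo against seed coat and 11 for whole seed, as without it. Quantile normalization moved the share of higher calls by at most 5.0 percentage points.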
